A study of Mus musculus with 30 samples.

Results

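The liver makes bile acids from cholesterol and returns them to bile after they come back from the gut. This account covers 10 genes of that cycle, measured in the livers of 30 mice with 1 array per mouse. They are the sterol hydroxylases Cyp7a1, Cyp8b1, Cyp27a1 and Cyp7b1, the conjugating enzymes Slc27a5 and Baat, the transporters Slc10a1 and Abcb11, and the nuclear receptors Nr1h4 and Nr0b2. All 10 were named on the array, out of 17097 genes with a probe set of a single symbol. A gene with several probe sets was read from its brightest one over the 30 mice.

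The livers fell into 5 groups. Asp/Clo livers came from 6 mice given aspirin and clopidogrel as prevention. Sulindac livers came from 10 mice given sulindac as prevention. Vehicle livers came from 4 mice with hepatocellular carcinoma (HCC) and fibrosis and from 5 mice without either. The diet of all these mice is labelled CD-HFD, a high-fat diet lacking choline that is used to model steatohepatitis (NASH) and the HCC that follows it. Healthy livers came from 5 mice on chow, whose treatment is also labelled vehicle. The tissue was non-tumour liver in every group. Aspirin and sulindac inhibit cyclooxygenases, and clopidogrel blocks the platelet receptor P2Y12. The labels give no strain, sex, age, dose, batch or hour of collection. Vehicle mice were divided by the disease they developed, so the HCC comparison follows an outcome and not a treatment. The study asked how livers of this model and of mice under preventive drugs differ. The series text counts 4 vehicle mice. The sample labels give 9 and set the groups here.

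In the classic pathway, Cyp7a1 starts synthesis as its rate-limiting enzyme and Cyp8b1 adds the hydroxyl group that makes cholic acid. In the alternative pathway, Cyp27a1 oxidises the sterol side chain and Cyp7b1 hydroxylates the oxysterols. Slc27a5 activates bile acids with coenzyme A, and Baat links them to taurine or glycine. Slc10a1 (NTCP) takes bile acids up from blood, and Abcb11 (BSEP) pumps them into the canaliculus. Nr1h4 (FXR) is the bile acid receptor. It induces Abcb11 and Nr0b2 (SHP), and SHP represses Cyp7a1 and Cyp8b1.

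Levels are given as log2 of the deposited normalized intensity, so a difference of 1 is a 2-fold difference in intensity. Levels of different genes are not compared, because each probe set has its own brightness. A gene was called when the adjusted p of limma's moderated test, corrected over all 17097 genes in a comparison by Benjamini and Hochberg's method, was under 0.05. In bulk liver, fewer cells of a type and less RNA per cell cannot be told apart.

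The arrays correlated with each other at 0.974 to 0.996 across probe sets. Hepatocyte markers were high in every mouse, with a mean over 6 of the 8 listed genes between 11.96 and 12.38. Cholangiocyte markers were near background, at 4.36 to 4.83 over 5 of 7 listed genes, except in Hlth_1807, where their mean was 5.73. Healthy mice Hlth_1798 and Hlth_1807 and vehicle mice Veh_low_794 and Veh_low_1819 lay nearer the other side of the diet comparison over the brighter genes than their own. Sex chromosome genes divided the Asp/Clo group. Xist, the RNA that coats the inactive X in female cells, lay between 10.95 and 11.21 in AspClo_58, AspClo_61, AspClo_63 and AspClo_64. It lay between 4.55 and 5.03 in the other 26 mice. Y-linked Eif2s3y was at 4.14 to 5.21 in those 4 mice and at 8.37 to 9.14 in the other 26. Every group other than Asp/Clo was uniform in this respect. Calls gained or lost without either set of 4 mice are given beside the values. The healthy and vehicle mice of the first set were picked by their measured values, which widens the distance between the groups that remain.

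Asp/Clo livers had a lower mean of Cyp8b1 than vehicle livers, by -1.07 on the log2 scale, and a lower mean of Cyp7b1 than vehicle (-0.81) and healthy livers (-1.15). Neither gene passed the test, and without the 4 mice with Xist signal the Cyp7b1 difference was 0.41 against vehicle and 0.066 against healthy livers. By limma, 0 of the 10 genes passed in each of the 9 comparisons made. Among all genes, 1.96% passed for Asp/Clo against vehicle, 0.877% for Asp/Clo against sulindac and 0.199% for sulindac against vehicle. The share was 0.0877% for vehicle with HCC against vehicle without HCC and 0.0117% for vehicle against healthy. Against healthy livers it was 2.77% for Asp/Clo, 2.98% for sulindac, 0.0994% for vehicle with HCC and 0.0% for vehicle without HCC. With no adjustment, p was under 0.05 for 2 of the 10 genes in each Asp/Clo comparison, and the share of all genes was 14.6% against vehicle, 10.8% against sulindac and 14.8% against healthy livers. There was 1, Cyp27a1, for vehicle with HCC against healthy (9.26% of all genes). There were 0 for sulindac against vehicle (10.4% of all genes) and healthy (14.8%), for vehicle with HCC against without (8.87%), and against healthy for vehicle as a whole (6.73%) and without HCC (5.32%). The values of the groups compared overlapped for all 10 genes in each comparison. Groups that did not overlap were found for 0.392% of all genes for Asp/Clo against vehicle, 0.328% for Asp/Clo against sulindac, 0.0702% for sulindac against vehicle, 3.0% for vehicle with HCC against without and 0.117% for vehicle against healthy. Against healthy livers the share was 2.01% for Asp/Clo, 1.32% for sulindac, 2.66% for vehicle with HCC and 0.79% for vehicle without HCC. Comparisons that use the same vehicle or healthy mice are not independent of each other.

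**Figure D1:**
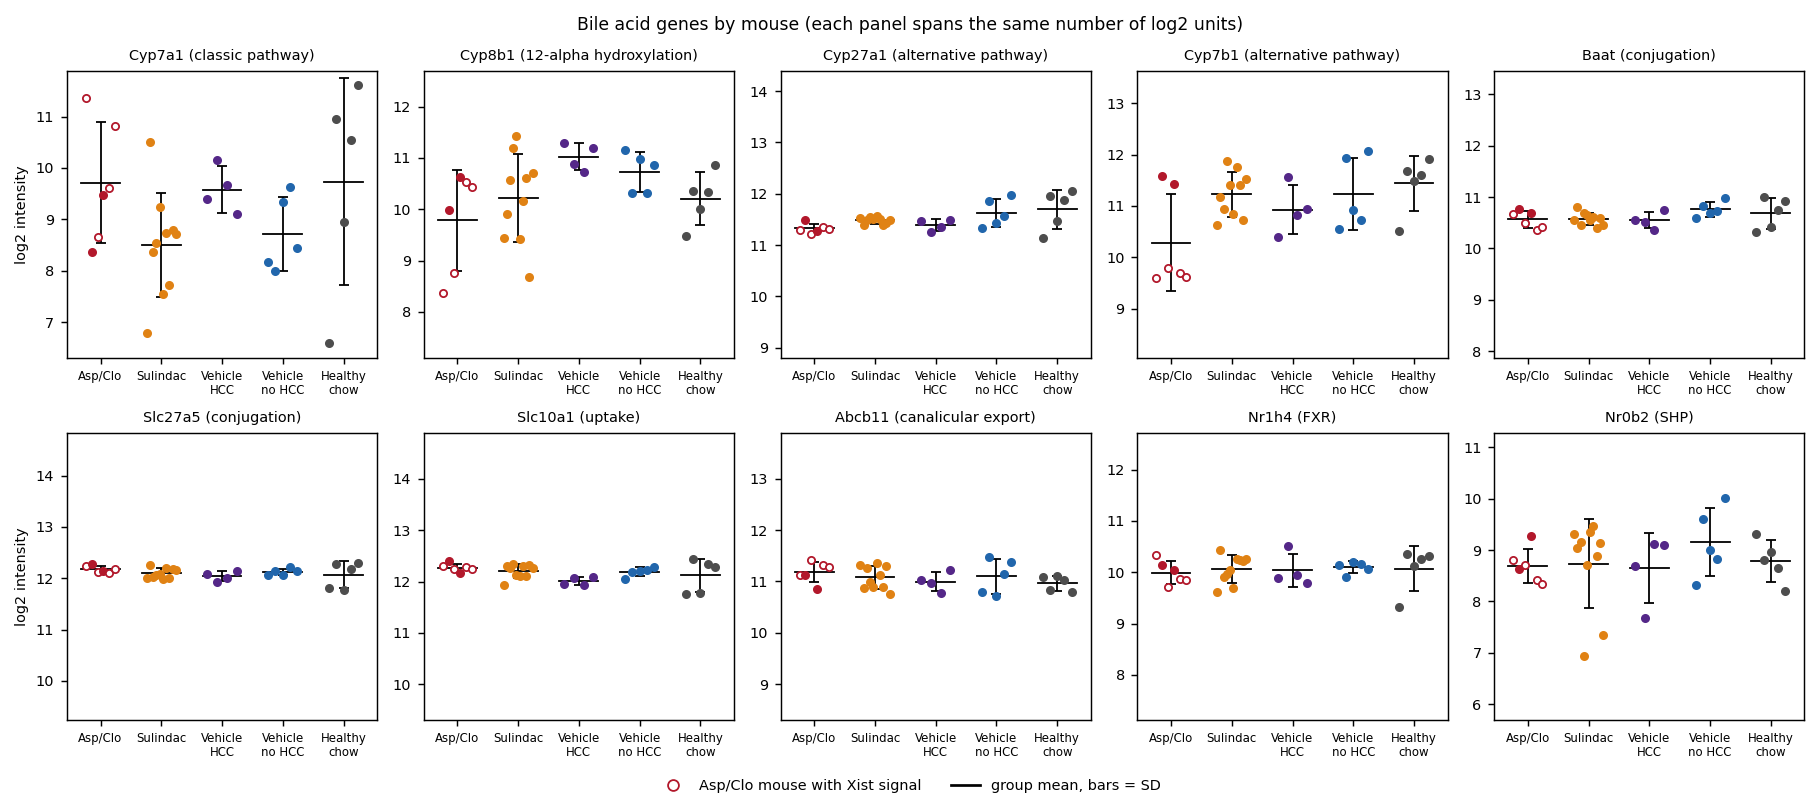
Log2 intensity of the 10 genes (y axis, the same span in each panel) by group (x axis), 1 point per mouse, with the group mean and SD. Open points are the 4 Asp/Clo mice with Xist signal. Cyp7a1, Cyp8b1, Cyp7b1 and Nr0b2 spread widely within groups, and the open points lie between 9.60 and 9.80 for Cyp7b1.

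Cyp7a1 was the most variable of the 10 genes. Its level in Asp/Clo livers was 11.37 in AspClo_58, 8.37 in AspClo_60, 8.65 in AspClo_61, 9.48 in AspClo_62, 9.60 in AspClo_63 and 10.82 in AspClo_64. Sulindac livers had a lowest value of 6.80, a median of 8.63 and a highest of 10.50. The highest sulindac value came from Sulin_16, and the other 9 sulindac mice were at or below 9.25. Vehicle livers with HCC had 9.39, 10.16, 9.67 and 9.10, and vehicle livers without HCC had 8.18, 8.0, 9.34, 9.62 and 8.45. Healthy livers had 6.58 in Hlth_1798, 10.96 in Hlth_1804, 8.94 in Hlth_1807, 10.55 in Hlth_1965 and 11.61 in Hlth_1968. The healthy group thus held both the lowest and the highest value of the 30 mice, a 32.6-fold range. The SD within groups was 1.18, and 99.8% of all genes had a smaller one.

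Cyp7a1 averaged 9.71 ± 1.18 in Asp/Clo livers (SD, n = 6) and 8.50 ± 1.01 in sulindac livers (SD, n = 10). That difference of 1.22 (SE 0.59) had an unadjusted p of 0.0469 and an adjusted p of 0.454 by limma. It was 0.43 (95% CI -1.35 to 2.20) with the 2 Asp/Clo mice that lacked Xist signal. The mean was 9.10 ± 0.74 in the 9 vehicle mice (SD). Sulindac minus vehicle was -0.61, and its 95% CI of -1.67 to 0.46 held both a large reduction and a gain. Asp/Clo minus vehicle was 0.61 (95% CI -0.61 to 1.84) with all 6 mice and -0.18 (95% CI -1.97 to 1.62) with the 2 that lacked Xist signal. Vehicle minus healthy was -0.63 (95% CI -1.92 to 0.67) with all mice. It was -1.69 (95% CI -2.95 to -0.43, adjusted p = 0.113 by limma) without Hlth_1798, Hlth_1807, Veh_low_794 and Veh_low_1819. Sulindac minus healthy was -1.23 (adjusted p = 0.359 by limma) with Hlth_1798, the lowest mouse of all, and -2.02 (adjusted p = 0.0336) without it. Without those 4 mice, which were picked by measured values, it was -2.54 (adjusted p = 0.00748, limma), where 7.76% of all genes passed. Asp/Clo minus healthy was -0.02 with all mice and -1.33 (adjusted p = 0.26 by limma) without the 4.

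Cyp7a1 transcripts are known to follow the daily clock, and the hour of collection is not in the labels. Dbp, a clock output gene, was at 10.20 in AspClo_58, 10.20 in Sulin_16 and 10.00 in Veh_high_1831, which had the highest Cyp7a1 values of their groups. It lay between 4.40 and 5.20 in all 5 vehicle livers without HCC and between 4.63 and 6.19 in healthy livers. In sulindac livers Dbp was at 5.29 in Sulin_15, the mouse with the least Cyp7a1, and between 7.76 and 10.20 in the other 9. The range of Dbp in Asp/Clo livers was 5.30 to 10.20. Dbp was also high in mice with ordinary Cyp7a1, for example 10.07 in Sulin_29 with Cyp7a1 at 8.72. The part of collection time in the Cyp7a1 values was not tested.

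Of the 10 genes, Cyp8b1 had the largest mean difference between a drug arm and vehicle. Its level was 8.37, 9.99, 8.76, 10.64, 10.53 and 10.43 in AspClo_58, AspClo_60, AspClo_61, AspClo_62, AspClo_63 and AspClo_64. Sulindac livers ranged from 8.68 through a median of 10.37 to 11.43. Vehicle livers had 11.29, 10.88, 10.73 and 11.18 with HCC and 11.16, 10.31, 10.98, 10.32 and 10.86 without HCC. No vehicle liver was below 10.31, whereas 3 Asp/Clo and 5 sulindac livers were. The other 3 Asp/Clo livers and 4 of the other 5 sulindac livers lay within the vehicle range, and Sulin_20, at 11.43, lay above it.

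Cyp8b1 averaged 9.79 ± 0.98 in Asp/Clo livers (SD, n = 6) and 10.86 ± 0.36 in vehicle livers (SD, n = 9). The difference of -1.07 (SE 0.37), 2.10-fold lower, had an unadjusted p of 0.00705 and an adjusted p of 0.139 by limma, so it was not called. Cyp8b1 and Cyp7b1 were the 2 of 10 genes under an unadjusted p of 0.05 there. With the 2 Asp/Clo mice without Xist signal the Cyp8b1 difference was -0.54 (95% CI -1.53 to 0.44). Sulindac livers averaged 10.21 ± 0.86 (SD, n = 10), lower than vehicle by 0.64 on the log2 scale (SE 0.32, unadjusted p = 0.0546, adjusted p = 0.488 by limma). Vehicle minus healthy was 0.65 (95% CI -0.15 to 1.45), the only gene of the 10 with a positive difference above 0.15 in that comparison. Healthy livers had 9.47, 10.35, 10.01, 10.34 and 10.86.

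The promoters of Cyp8b1, Nr0b2 and Abcb11 are shown because they hold letters of the type bound by the receptors described here. RefSeq start sites on build GRCm38.p6 gave windows for 6 of the 10 genes, and each sequence covers the 250 bases before the start, 5′ to 3′ on the strand of the gene. Both strands were searched for CAAGGNCA (the type bound by NR5A2, also called LRH-1), CAAAGTCCA (the type bound by HNF4) and the inverted repeat of the type bound by FXR, in which AGGNCA is followed after 1 base by its reverse complement. Capitals mark the matches. In the Cyp8b1 window (chr9:121916306-121916555, minus strand) the HNF4 type match at -67 to -59 overlaps the LRH-1 type match at -60 to -53.
Cyp8b1: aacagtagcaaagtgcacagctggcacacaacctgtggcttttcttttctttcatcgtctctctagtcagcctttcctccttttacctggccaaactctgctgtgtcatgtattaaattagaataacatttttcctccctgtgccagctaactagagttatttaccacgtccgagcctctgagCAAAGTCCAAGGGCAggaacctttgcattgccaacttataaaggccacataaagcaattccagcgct
Nr0b2: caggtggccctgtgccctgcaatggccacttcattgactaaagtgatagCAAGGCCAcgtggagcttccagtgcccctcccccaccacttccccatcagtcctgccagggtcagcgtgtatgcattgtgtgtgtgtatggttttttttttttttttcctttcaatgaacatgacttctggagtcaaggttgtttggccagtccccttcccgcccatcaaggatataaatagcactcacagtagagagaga
Abcb11: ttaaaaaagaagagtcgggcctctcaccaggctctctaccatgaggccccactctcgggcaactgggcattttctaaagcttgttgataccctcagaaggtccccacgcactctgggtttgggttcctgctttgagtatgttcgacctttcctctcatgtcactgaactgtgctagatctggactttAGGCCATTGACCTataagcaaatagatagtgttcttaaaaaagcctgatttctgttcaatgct
The Nr0b2 window lies at chr4:133553126-133553375 on the plus strand, with an LRH-1 type match at -201 to -194. The Abcb11 window lies at chr2:69342617-69342866 on the minus strand, with an FXR type match at -63 to -51, the same on both strands. Of 32851 promoter windows of the same length, 5.53% held the LRH-1 type, 0.384% the HNF4 type and 0.0852% the FXR type. A match is a description of the letters and no evidence of binding in these livers.

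Cyp27a1 was even within the drug arms and dispersed among healthy livers. It ranged from 11.22 through a median of 11.30 to 11.49 in Asp/Clo livers and from 11.38 through 11.49 to 11.56 in sulindac livers. Vehicle livers with HCC had 11.46, 11.25, 11.35 and 11.50. Vehicle livers without HCC had 11.32, 11.86, 11.42, 11.56 and 11.97, the highest in Veh_low_794. Healthy livers had 11.15 in Hlth_1798, 11.95 in Hlth_1804, 11.46 in Hlth_1807, 11.88 in Hlth_1965 and 12.05 in Hlth_1968. Apart from Hlth_1798 and Hlth_1807, the healthy mice lay above all drug-treated mice and all vehicle mice with HCC.

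Against healthy livers, Cyp27a1 differed by -0.37 (SE 0.12, adjusted p = 0.0858 by limma) in Asp/Clo livers. The difference was -0.22 (adjusted p = 0.337) in sulindac livers and -0.31 (adjusted p = 0.468) in vehicle livers with HCC. It was -0.18 (95% CI -0.40 to 0.05) in all vehicle livers together. Without Hlth_1798 alone, the difference passed at -0.51 (adjusted p = 0.00432) in Asp/Clo livers and at -0.36 (adjusted p = 0.0272, limma) in sulindac livers. Without Hlth_1798, Hlth_1807, Veh_low_794 and Veh_low_1819, Cyp27a1 passed in all 5 comparisons with healthy livers, at -0.64 for Asp/Clo (adjusted p = 2.31e-06), -0.48 for sulindac, -0.57 for vehicle with HCC, -0.53 for vehicle without HCC and -0.55 for vehicle as a whole (adjusted p = 8.37e-06, limma). These 4 mice were singled out by their measured values, which widens the distance between the groups that remain. In that setting 5.43%, 7.76%, 5.01%, 2.95% and 5.61% of all genes passed for Asp/Clo, sulindac, vehicle with HCC, vehicle without HCC and all vehicle. Acute phase genes, a mark of inflammation, had a mean over 7 genes of 9.91 to 10.93 in Asp/Clo, 10.47 to 11.49 in sulindac, 10.73 to 11.30 in vehicle livers with HCC and 8.85 to 10.81 in vehicle livers without HCC. Their range in healthy livers was 9.14 to 11.12, with the highest value in Hlth_1807. Macrophage markers had a mean over 8 of 8 listed genes of 7.07 to 8.21 in Asp/Clo, 7.62 to 8.55 in sulindac, 7.01 to 8.0 in vehicle livers with HCC, 7.31 to 8.29 in vehicle livers without HCC and 6.94 to 8.63 in healthy livers, with the highest value of all in Hlth_1798. Endothelial markers, 5 of 5 listed, had a mean of 7.45 to 8.01 in Asp/Clo, 7.59 to 7.86 in sulindac, 6.96 to 7.68 in vehicle livers with HCC, 7.46 to 7.79 in vehicle livers without HCC and 6.94 to 7.56 in healthy livers. In sulindac against healthy livers, 8 of 8 macrophage genes had a positive difference (median 0.69), with 0 called. So did 5 of 5 endothelial genes (median 0.37), with 1 called by limma. Among all genes there, 9035 of 17097 had a positive difference and 1.99% were called higher. Stellate and myofibroblast genes were higher in 3 and lower in 4, lymphocyte genes in 2 and 4, and cholangiocyte genes in 0 and 5. The part of these lists in the differences from healthy livers was not tested.

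Cyp7b1 divided the Asp/Clo group. It was at 9.60 in AspClo_58, 9.80 in AspClo_61, 9.70 in AspClo_63 and 9.61 in AspClo_64, the 4 mice with Xist signal. It was at 11.58 in AspClo_60 and 11.43 in AspClo_62. Sulindac livers ranged from 10.62 through a median of 11.29 to 11.87. Vehicle livers had 10.39, 11.57, 10.83 and 10.93 with HCC and 10.56, 11.92, 10.91, 10.72 and 12.07 without HCC, and healthy livers had 10.51, 11.69, 11.48, 11.61 and 11.91. The lowest of the 26 mice without Xist signal was thus above the highest of the 4 with it. Cyp7b1 was the 1 gene of the 10 that separated these mice, where 0.936% of all genes did so, 0.521% higher and 0.415% lower in the 4.

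**Figure D2:**
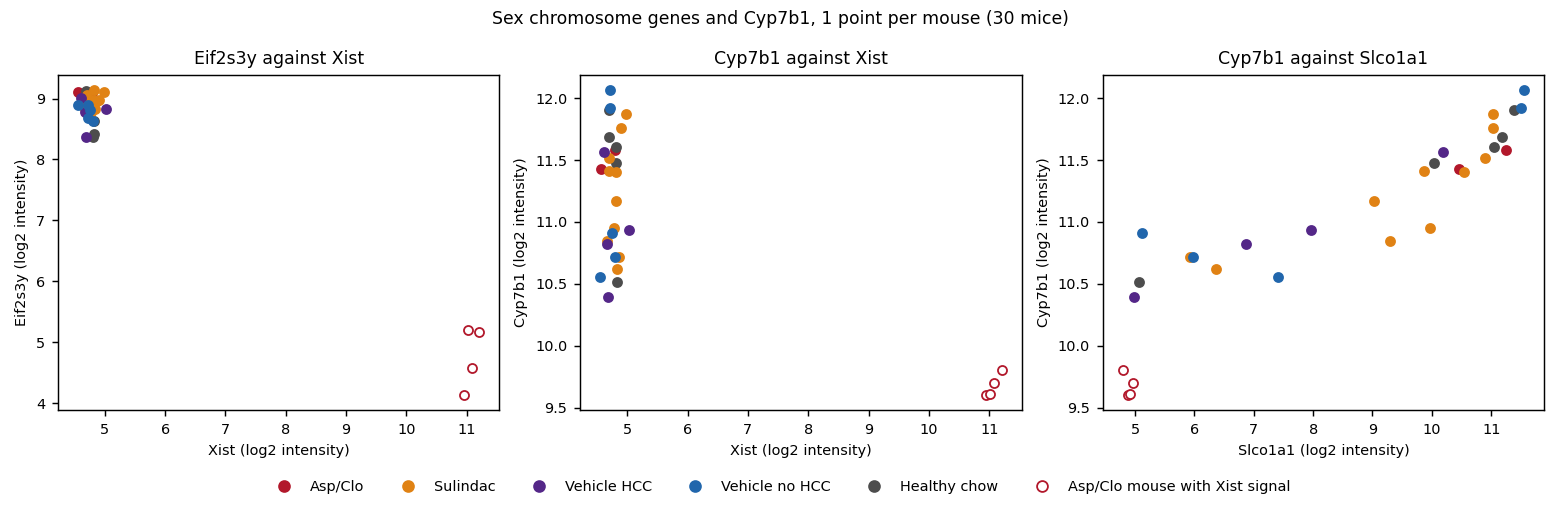
Log2 intensities of Eif2s3y and Cyp7b1 against Xist, and of Cyp7b1 against Slco1a1, 1 point per mouse (30 mice), coloured by group. Open points are the 4 Asp/Clo mice with Xist signal, which lie apart from the other 26 in Xist, Eif2s3y and Cyp7b1. In Slco1a1 they lie beside a few mice of other groups.

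Cyp7b1 is known to be higher in male than in female mouse liver. Over all 6 Asp/Clo mice, its difference was -0.81 (SE 0.32, adjusted p = 0.213) against vehicle, -0.94 (SE 0.31, adjusted p = 0.177) against sulindac and -1.15 (SE 0.37, adjusted p = 0.0929) against healthy livers by limma. With AspClo_60 and AspClo_62 alone in the group, the sign turned in each case. The differences were then 0.41 (95% CI -0.39 to 1.20), 0.28 (95% CI -0.51 to 1.06) and 0.07 (95% CI -0.78 to 0.91). With 2 mice, the spread of the group is taken to be that of the others. Leaving out AspClo_60 alone gave -1.20 against sulindac (adjusted p = 0.0491) and -1.41 against healthy livers (adjusted p = 0.0213). Against healthy livers it was -1.38 without AspClo_62 (adjusted p = 0.0247) and -1.38 without Hlth_1798 (adjusted p = 0.0379, limma). Without Hlth_1798, Hlth_1807, Veh_low_794 and Veh_low_1819 it was -1.45 (adjusted p = 0.0265, limma), where 5.43% of all genes passed. Sulindac minus vehicle was 0.13 (95% CI -0.45 to 0.70), and vehicle minus healthy was -0.34 (95% CI -1.03 to 0.36) with all mice and -0.89 (adjusted p = 0.189 by limma) without those 4.

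Several male-biased genes of the liver were high and low in the same mice as Cyp7b1. The uptake transporter Slco1a1, male-biased in mouse liver, was at 4.79 to 4.97 in the 4 Asp/Clo mice with Xist signal and at 11.25 and 10.45 in AspClo_60 and AspClo_62. Slco1a1 was also low in single mice of other groups, at 4.98 in Veh_high_1770, 5.11 in Veh_low_1825 and 5.07 in Hlth_1798, where Cyp7b1 was at 10.39, 10.91 and 10.51. The mean over 6 male-biased genes ranged from 6.88 to 10.77 in Asp/Clo, 8.77 to 11.16 in sulindac, 8.69 to 10.38 in vehicle livers with HCC, 8.75 to 11.81 in vehicle livers without HCC and 8.82 to 11.50 in healthy livers. Selenbp2, 1 of these 6, went the other way within Asp/Clo. It was at 11.93, 11.71, 11.67 and 11.67 in the 4 mice with Xist signal and at 11.41 and 11.36 in AspClo_60 and AspClo_62. All mice with Xist signal were in the Asp/Clo group, and the part of sex in the Cyp7b1 values was not tested. Across the 26 mice without Xist signal, the genes closest to Cyp7b1 were Hsd3b5 (Pearson r 0.935), Slc22a30 (0.915) and Slco1a1 (0.907), as a description. A second bright probe set of Cyp7b1 correlated with the one used at 0.997. The remaining one lay near background, with a mean of 4.27.

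The conjugating enzymes Slc27a5 and Baat spanned a 1.43-fold and a 1.59-fold range over the 30 mice. Slc27a5 ranged from 12.11 to 12.27 in Asp/Clo, 11.99 to 12.26 in sulindac, 11.93 to 12.14 in vehicle livers with HCC, 12.06 to 12.21 in vehicle livers without HCC and 11.77 to 12.29 in healthy livers. Its SD within groups of 0.13 was the smallest of the 10 genes. A smaller SD was found for 53.6% of all genes but for 17.6% of the genes at or above the median level. The SD of Baat was 0.18, and 69.8% of all genes and 42.9% of those at or above the median level had a smaller one. Baat ranged from 10.36 to 10.76 in Asp/Clo, 10.39 to 10.80 in sulindac, 10.37 to 10.75 in vehicle livers with HCC, 10.60 to 10.98 in vehicle livers without HCC and 10.33 to 10.998 in healthy livers. The lowest healthy values of both enzymes came from Hlth_1798 and Hlth_1807. For Slc27a5, vehicle minus healthy was 0.02 (95% CI -0.13 to 0.16), sulindac minus vehicle 0.01 (95% CI -0.11 to 0.13) and Asp/Clo minus vehicle 0.09 (95% CI -0.05 to 0.23). For Baat, vehicle livers with HCC were lower than those without by 0.21 (SE 0.12, adjusted p = 0.622 by limma). Without the 4 mice nearer the other side of the diet comparison, Baat passed lower in Asp/Clo (-0.33), sulindac (-0.32) and vehicle livers with HCC (-0.35) against healthy livers. In that setting 5.43%, 7.76% and 5.01% of all genes passed. The 4 mice were picked by measured values and include Hlth_1798 and Hlth_1807, so the healthy mean of Baat rises without them.

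Slc10a1 was at 12.29, 12.40, 12.25, 12.16, 12.27 and 12.24 in Asp/Clo livers and ranged from 11.94 through a median of 12.26 to 12.34 in sulindac livers. Vehicle livers had 11.95, 12.07, 11.93 and 12.10 with HCC and 12.05, 12.18, 12.21, 12.23 and 12.28 without HCC. Healthy livers had 11.76 in Hlth_1798, 12.44 in Hlth_1804, 11.77 in Hlth_1807, 12.35 in Hlth_1965 and 12.28 in Hlth_1968. The healthy group held both the lowest and the highest value of the 30 mice. Asp/Clo minus all vehicle was 0.16 (SE 0.08, adjusted p = 0.384), and vehicle with HCC minus without was -0.18 (SE 0.11, adjusted p = 0.668 by limma). Vehicle minus healthy was -0.01 (95% CI -0.19 to 0.17). Without the 4 mice nearer the other side of the diet comparison it was -0.28 (adjusted p = 0.0247), and -0.34 (adjusted p = 0.0133, limma) for vehicle livers with HCC. In that setting 5.61% and 5.01% of all genes passed. The 4 mice were picked by measured values and include Hlth_1798 and Hlth_1807, so the healthy mean of Slc10a1 rises without them.

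Abcb11 ranged from 10.86 through a median of 11.20 to 11.42 in Asp/Clo livers and from 10.76 through 11.05 to 11.36 in sulindac livers. Vehicle livers had 11.02, 10.97, 10.78 and 11.22 with HCC and 10.79, 11.47, 10.72, 11.14 and 11.37 without HCC. Healthy livers had 11.08, 10.84, 11.11, 11.02 and 10.78. The vehicle livers without HCC spanned the whole range of the 30 mice, so the groups lay inside one another. Asp/Clo minus vehicle was 0.13 (95% CI -0.10 to 0.37), sulindac minus vehicle 0.02 (95% CI -0.18 to 0.23) and vehicle minus healthy 0.09 (95% CI -0.16 to 0.34).

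Nr1h4 had nearly the same mean in every group. It averaged 9.99 ± 0.22 in Asp/Clo (n = 6), 10.06 ± 0.27 in sulindac (n = 10), 10.04 ± 0.33 in vehicle livers with HCC (n = 4), 10.10 ± 0.12 in vehicle livers without HCC (n = 5) and 10.07 ± 0.43 in healthy livers (SD, n = 5). Of its variance over the 30 mice, 1.80% lay between groups, the least of the 10 genes. Sulindac minus vehicle was -0.01 (95% CI -0.26 to 0.25), and vehicle minus healthy was -0.004 (95% CI -0.32 to 0.31). Hlth_1798 had the lowest value of all mice, 9.32, and the other healthy mice were at 10.35, 10.12, 10.26 and 10.32.

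Nr0b2 varied mainly within groups, and 6.89% of its variance over the 30 mice lay between them. Asp/Clo livers had 8.80, 8.62, 8.72, 9.27, 8.42 and 8.35. In sulindac livers Sulin_18 was at 6.95 and Sulin_29 at 7.35, and the other 8 were between 8.72 and 9.48. Vehicle livers had 8.69, 7.67, 9.12 and 9.11 with HCC and 8.32, 9.60, 9.0, 8.82 and 10.02 without HCC, and healthy livers had 9.32, 8.80, 8.96, 8.65 and 8.21. Sulin_18, Sulin_29 and Veh_high_1831 (7.67) were the lowest of the 30 mice. Asp/Clo minus vehicle was -0.23 (95% CI -0.92 to 0.46) and sulindac minus vehicle was -0.19 (95% CI -0.80 to 0.41).

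**Figure D3:**
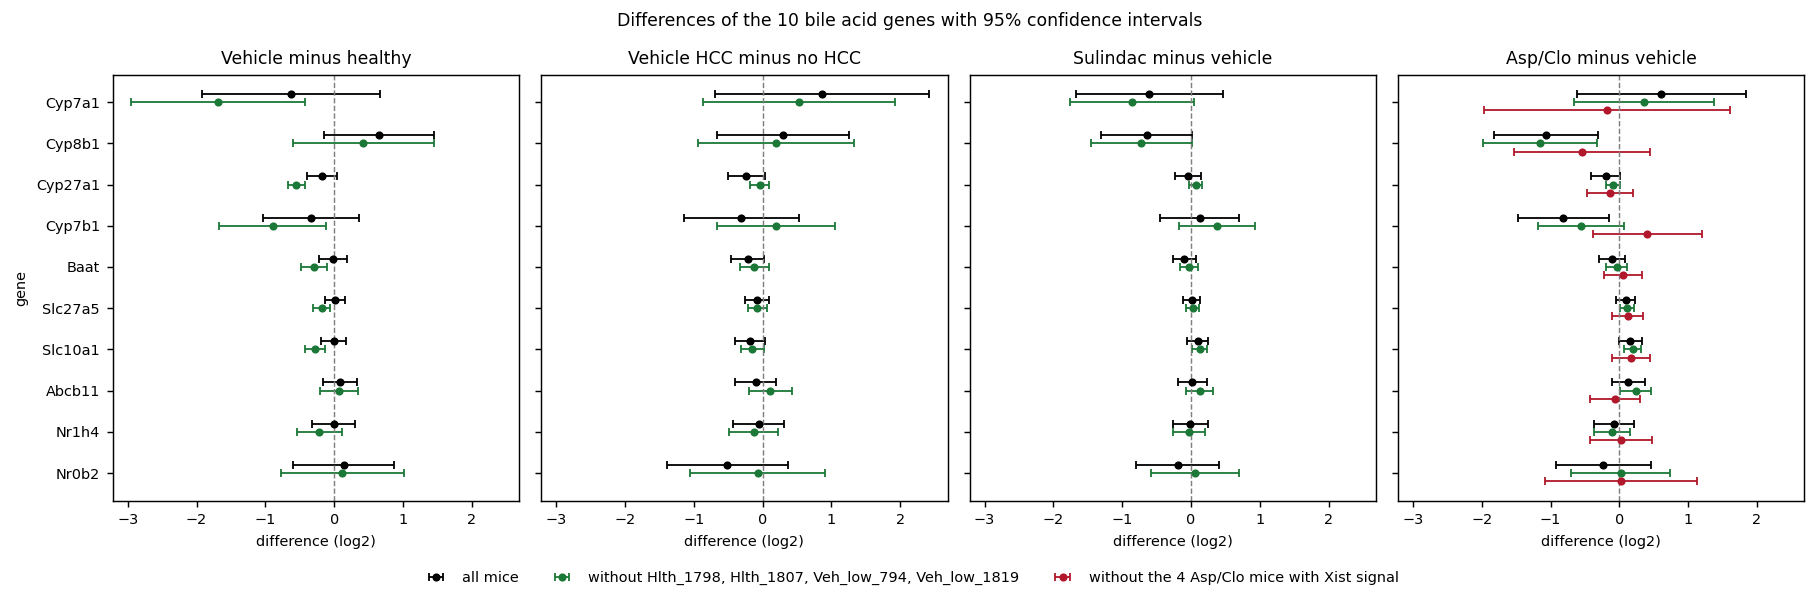
Differences of the 10 genes on the log2 scale (x axis) with 95% confidence intervals, for vehicle minus healthy, vehicle with HCC minus without, sulindac minus vehicle and Asp/Clo minus vehicle. Black points use all 30 mice, green points leave out Hlth_1798, Hlth_1807, Veh_low_794 and Veh_low_1819, and red points leave out the 4 Asp/Clo mice with Xist signal. Cyp27a1 in vehicle livers lies at -0.18 against healthy with all mice and at -0.55 without the first 4, and Cyp7b1 in Asp/Clo livers lies at -0.81 against vehicle with all mice and at 0.41 without the second 4.

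Taken over the 10 genes, the median differences were small. For Asp/Clo against vehicle, 4 of 10 were higher and 6 lower, with a median difference of -0.09, where the median over all genes was 0.00. For sulindac against vehicle the counts were the same and the median was -0.03, against 0.01 over all genes. Vehicle livers with HCC had 8 of 10 genes lower than those without, with a median of -0.14, against -0.01 over all genes. Vehicle against healthy had 4 higher and 6 lower, with a median of -0.01, against 0.00 over all genes. These counts describe the direction of means whose differences were not called.

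Across the 30 mice, some pairs of the 10 genes were correlated. The share of such pairs among all genes was not computed, so the counts do not set the 10 genes apart. Genes outside the 10 reached values as large, such as Gchfr with Slc27a5 (r = 0.94) and Tgm2 with Slc10a1 (r = -0.86). The permutations moved values freely between the 5 groups. Of 45 pairs, 11 had a positive and 2 a negative Pearson correlation over the 30 mice with an adjusted permutation p under 0.05 (100000 permutations, two-sided, adjusted over the 45 pairs). The transporter Slc10a1 and the enzyme Slc27a5 had r = 0.83 (rho 0.748, adjusted p = 0.000225 for r and 0.00045 for rho by permutation). It was 0.70 without Hlth_1798 and Hlth_1807, 0.64 within sulindac and 0.70 within Asp/Clo livers. Baat and Slc27a5 had r = 0.65 (rho 0.651), which was 0.57 within sulindac and 0.69 within Asp/Clo livers. Cyp27a1 and Baat had r = 0.75 (rho 0.622) over all mice but 0.00 within the 10 sulindac mice, where Cyp27a1 spanned 0.17 log2 units.

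**Figure D4:**
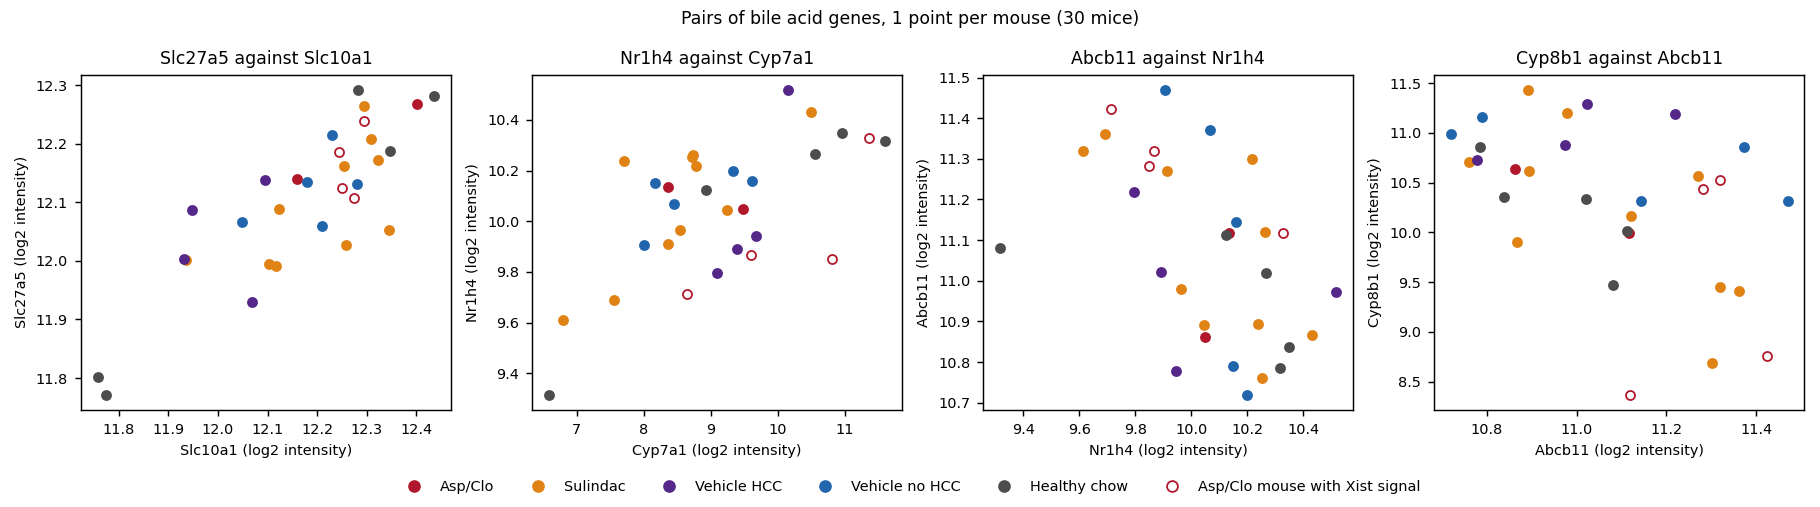
Log2 intensity of 4 pairs of genes, 1 point per mouse (30 mice), coloured by group. Slc27a5 rises with Slc10a1 (r = 0.83) and Nr1h4 with Cyp7a1 (r = 0.62), while Abcb11 falls with Nr1h4 (r = -0.51) and Cyp8b1 with Abcb11 (r = -0.47).

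Cyp7a1 and the receptor Nr1h4 had r = 0.62 (rho 0.529, adjusted p = 0.00189 for r and 0.014 for rho by permutation). It was 0.51 without Hlth_1798 and Hlth_1968, 0.76 within sulindac and 0.38 within Asp/Clo livers. The FXR target Abcb11 was negatively related to Nr1h4, with r = -0.51 (rho -0.536, adjusted p = 0.0193 for r and 0.0138 for rho by permutation). It was -0.50 without Veh_low_1819 and Veh_low_1825, -0.66 within sulindac and -0.67 within Asp/Clo livers. Cyp8b1 and Abcb11 had r = -0.47 (rho -0.495, adjusted p = 0.0339 for r and 0.0254 for rho by permutation), with -0.49 without AspClo_58 and Sulin_26, -0.68 within sulindac and -0.28 within Asp/Clo livers. For Cyp7a1 and its repressor Nr0b2 r was -0.29 (rho -0.414, adjusted p = 0.223 for r and 0.0679 for rho by permutation). Cyp7a1 and Cyp8b1, which share the classic pathway, had r = 0.11 (rho 0.143, adjusted p = 0.737 for r by permutation). Each within-group value rests on 10 sulindac or 6 Asp/Clo mice and is given without a test.

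Of 45 other genes of bile acid handling that were listed from general knowledge, 42 were measured. In Asp/Clo against vehicle livers 3 of 42 passed higher and 1 lower, while 0.983% of all genes passed higher and 0.977% lower. Of the 42 genes, 0 passed in vehicle against healthy, in vehicle with HCC against without and in sulindac against vehicle by limma. Without adjustment, p was under 0.05 for 7 of the 42 in the diet comparison (6.73% of all genes), 4 in the HCC comparison (8.87%) and 6 in the sulindac comparison (10.4%). The unadjusted count was 14 for Asp/Clo against vehicle (14.6%) and 12 for Asp/Clo against sulindac (10.8%). Against healthy livers it was 14 for Asp/Clo (14.8%), 13 for sulindac (14.8%), 7 for vehicle with HCC (9.26%) and 4 for vehicle without HCC (5.32%). Without Hlth_1798, Hlth_1807, Veh_low_794 and Veh_low_1819, 2 passed higher (Abcb4, which moves phospholipid into bile, and Hsd3b7) and 3 lower (Cyp2b10, Cyp3a11 and Mafg) in vehicle against healthy livers, where 5.61% of all genes passed. Against healthy livers, those passing in that setting were Hsd3b7 higher and Cyp2b10, Cyp3a11 and Mafg lower in vehicle livers with HCC (5.01% of all genes), and Abcb4 higher and Cyp2b10 lower in those without (2.95%). The count there was 0 of 42 for vehicle with HCC against without (0.0819% of all genes) and for sulindac against vehicle (0.836%) by limma, with 7 (8.39% of all genes) and 12 (12.5%) under an unadjusted p of 0.05. In the same setting 5 of 42 passed higher and 3 lower in Asp/Clo against vehicle livers, where 4.79% of all genes did. The calls gained there were Atp8b1 and Mafg, higher, and Abcb4 and Slc10a2, lower. The median difference of the 42 genes in Asp/Clo against vehicle was 0.02.

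The genes higher in Asp/Clo livers were Slco1a4, Klb and Nr5a2. Slco1a4, an uptake transporter of the sinusoidal membrane, was at 10.83, 9.82, 10.18, 9.34, 10.63 and 10.24 in Asp/Clo livers, against 8.48, 8.69, 8.52 and 8.89 in vehicle livers with HCC and 8.66, 8.29, 9.38, 9.47 and 8.71 in vehicle livers without HCC. The rise of 1.39 (SE 0.30, adjusted p = 0.0136 by limma) became 0.79 (adjusted p = 0.703) with AspClo_60 and AspClo_62 alone, the 2 lowest Asp/Clo mice. Klb, the co-receptor through which intestinal FGF15 lowers Cyp7a1, was at 8.76, 9.28, 9.38, 8.79, 8.94 and 9.10 in Asp/Clo livers and between 7.80 and 8.59 in the 9 vehicle livers, with no overlap. In that comparison 0.392% of all genes did not overlap.

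Klb was higher by 0.75 (SE 0.17, adjusted p = 0.0189) against vehicle and by 0.70 (SE 0.17, adjusted p = 0.0385) against sulindac, the 1 gene of the 42 called between the drug arms, where 0.421% of all genes passed higher. With AspClo_60 and AspClo_62 alone, these differences were 0.74 and 0.69, nearly as large, at adjusted p = 0.438 and 0.326 with 2 mice by limma. Nr5a2 (LRH-1), which activates Cyp8b1 and Nr0b2, averaged 8.48 ± 0.19 in Asp/Clo (n = 6) and 7.93 ± 0.21 in vehicle livers (SD, n = 9), a rise of 0.55 (adjusted p = 0.0201 by limma). It became 0.40 (adjusted p = 0.636) with the 2 mice. Fgfr4, the receptor that works with Klb, had no call, at 7.40 to 7.95 in Asp/Clo, 7.15 to 7.62 in vehicle livers with HCC and 7.35 to 8.08 in vehicle livers without HCC. Cyp8b1 had a negative difference in this same comparison that was not called, and its relation to Nr5a2 was not tested. Leaving out AspClo_61 gave adjusted p = 0.068 for Klb and 0.0699 for Nr5a2 against vehicle and 0.125 for Klb against sulindac. Of 16 repeats that each left out 1 mouse, 10 lost the Klb call against sulindac, those without AspClo_60, AspClo_61, AspClo_63, AspClo_64, Sulin_15, Sulin_18, Sulin_20, Sulin_23, Sulin_25 or Sulin_29. Nr5a2 against vehicle also lost its call without AspClo_58 or AspClo_63 (adjusted p = 0.0642 and 0.0506, limma). Read from the dimmest probe set of each gene, Klb was not called against vehicle, sulindac or healthy livers. Read from the mean of its probe sets, Klb was called in all of these comparisons.

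Hsd17b4, a peroxisomal enzyme that shortens the side chain, fell by 0.34 (SE 0.08, adjusted p = 0.0159 by limma) in Asp/Clo against vehicle livers. With AspClo_60 and AspClo_62 alone the difference was -0.14 (adjusted p = 0.792), and without AspClo_58 it was -0.30 (adjusted p = 0.0642, limma). Leaving out AspClo_58 also took Slco1a4 to adjusted p = 0.0543. With those 2 mice alone, 0 of the 42 genes passed against vehicle, sulindac or healthy livers by limma, where 0.0409%, 0.298% and 0.216% of all genes did. Without adjustment, p was under 0.05 for 4, 7 and 10 of the 42, and for 7.79%, 10.3% and 7.71% of all genes. Its values were 11.08, 11.36, 11.29, 11.64, 11.22 and 11.22 in Asp/Clo livers, while vehicle livers lay between 11.50 and 11.81.

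**Figure D5:**
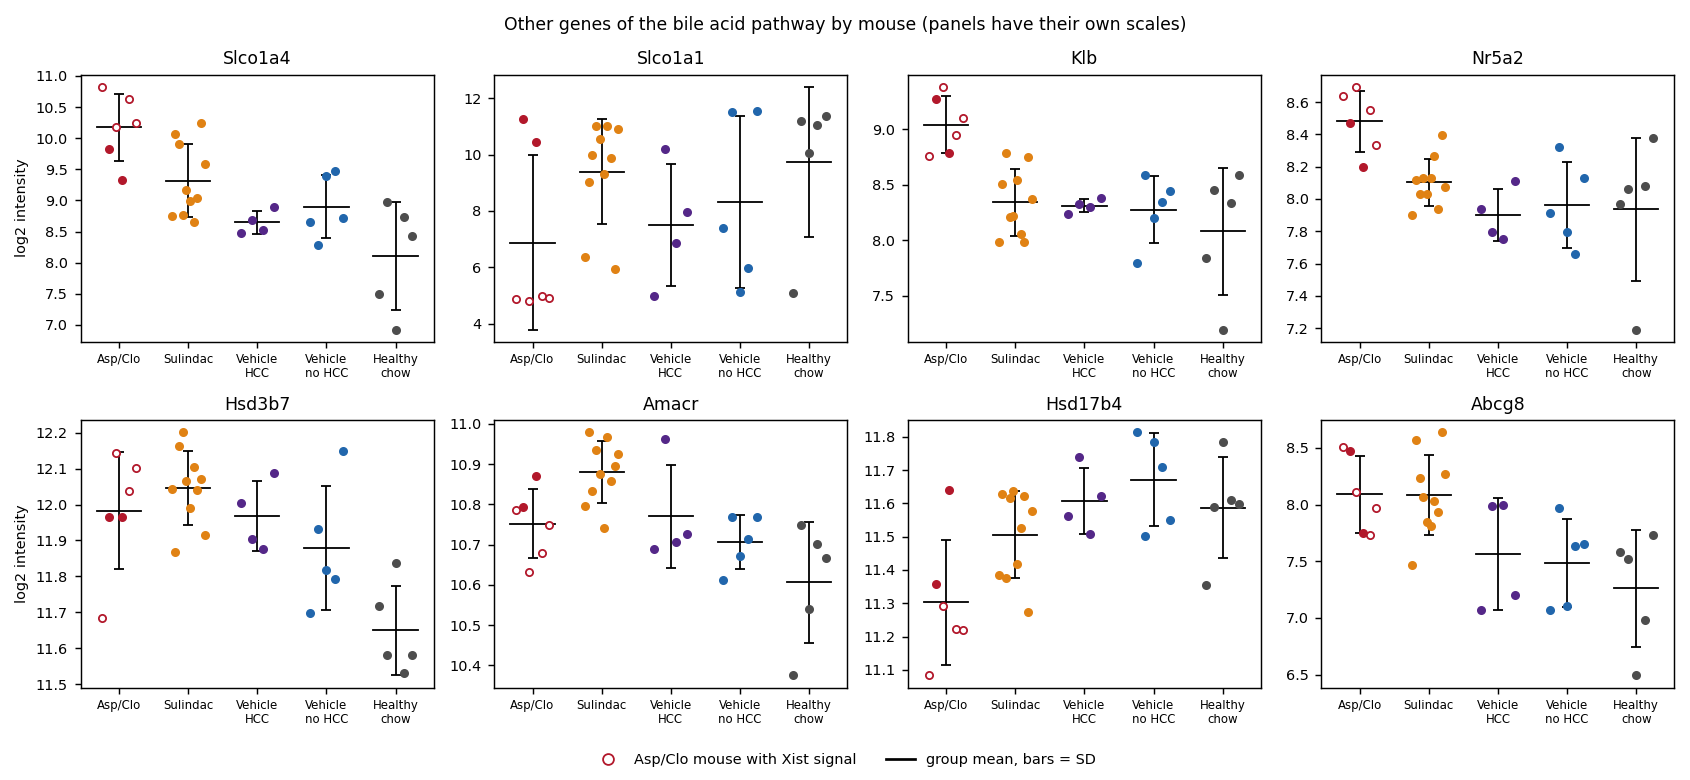
Log2 intensity of 8 other genes of bile acid handling (y axis, own scale in each panel) by group, 1 point per mouse, with the group mean and SD. Open points are the 4 Asp/Clo mice with Xist signal. All Asp/Clo points for Klb, from 8.76 to 9.38, lie above the vehicle points.

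Against healthy livers, 4 of the 42 genes passed higher and 1 lower in sulindac livers, with 1.99% of all genes higher and 0.988% lower. Hsd3b7, which acts on the sterol ring after the first hydroxylation, averaged 12.05 ± 0.10 in sulindac (n = 10) and 11.65 ± 0.12 in healthy livers (SD, n = 5), a rise of 0.40 (adjusted p = 0.00214 by limma). Amacr, a peroxisomal racemase of the side chain, rose by 0.27 (adjusted p = 0.0055), the sterol exporter subunit Abcg8 by 0.83 (adjusted p = 0.0296) and Slco1a4 by 1.21 (adjusted p = 0.0295). Cyp3a11, which hydroxylates bile acids and has close paralogs whose transcripts can share probes, fell by 0.18 (adjusted p = 0.0383, limma). Asp/Clo livers had 4 of 42 higher and 0 lower against healthy, with 1.64% of all genes higher and 1.13% lower. These were Slco1a4 by 2.06 (adjusted p = 0.000853), Klb by 0.96 (0.00616), Hsd3b7 by 0.33 (0.0169) and Nr5a2 by 0.55 (0.0346, limma). Of 15 repeats without 1 mouse, the sulindac calls for Hsd3b7 and Amacr were lost in 0 and those for Abcg8 in 2 (without Hlth_1965 or Hlth_1807) and Slco1a4 in 2 (without Hlth_1798 or Hlth_1807). The Cyp3a11 call was lost in 9, without any 1 of Hlth_1804, Hlth_1807, Hlth_1965, Hlth_1968, Sulin_16, Sulin_17, Sulin_18, Sulin_23 or Sulin_25. Of 11 such repeats in Asp/Clo, Klb and Slco1a4 lost their calls in 0, Hsd3b7 in 2 (without AspClo_61 or Hlth_1965) and Nr5a2 in 4 (without AspClo_58, AspClo_61, AspClo_63 or Hlth_1807). Without Hlth_1798, Hlth_1807, Veh_low_794 and Veh_low_1819 together, the sulindac calls for Amacr (0.17, adjusted p = 0.06), Abcg8 (0.68, adjusted p = 0.079) and Slco1a4 (0.61, adjusted p = 0.279) were lost, those for Hsd3b7 and Cyp3a11 stayed, and Cyp2b10 was gained, lower. Of the Asp/Clo calls against healthy livers, Nr5a2 (0.31, adjusted p = 0.111 by limma) was lost in that setting and Cyp2b10 was gained, lower. There 7.76% of all genes passed for sulindac and 5.43% for Asp/Clo. Hsd3b7 stood between 11.68 and 12.14 in Asp/Clo, 11.87 and 12.20 in sulindac, and 11.53 and 11.84 in healthy livers.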

How the data were processed

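Each liver was hybridised to 1 Affymetrix array (HT MG-430 PM), with RNA from fresh-frozen non-tumour liver. The authors deposited linear intensities after RMA and quantile normalization, per the series text and the submitters' processing notes; further versions and parameters are not given in the sources used here. Array medians lay between 24.1 and 24.6 intensity units. Of 45141 probe sets, 104 were controls, 551 had several gene symbols, 15588 had none and 28898 had 1, giving 17097 genes. Symbols came from the platform annotation, updated through RefSeq for 28689 probe sets. Each gene was read from its probe set with the highest mean.

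The log2 intensities were fitted with limma 3.58.1 in R 4.3.3, with 1 mean per label group over all 30 mice (25 residual degrees of freedom) and no filter on dim genes. Vehicle as a whole was the mean over its 9 mice. P-values were adjusted within each comparison over all genes. The scripts were tested on simulated data. Correlations used permutations in scipy 1.17.1. The labels do not say whether mice shared litters, cages or array batches. The limma p-values set each difference against the spread between these mice and take the mice as independent. Any litter, cage or batch that follows the groups could not be told apart from them. The number of arrays limits the precision.

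Alternatives covered the samples in the fit, the probe set, the normalization, an offset, a filter on dim genes, the estimate of the spread, array weights and mice left out. The repeat without the 4 Asp/Clo mice with Xist signal was added after seeing the data. The 10 genes and all lists were chosen with earlier results of these data known. Other genes of bile acid handling were named where they passed, and Fgfr4 was named after its values were seen, as the partner of Klb. Marker genes were named where their values stood beside a result.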

Additional observations from a re-analysis of the deposited data

Results flagged for a closer look

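Among the 10 genes in the 5 groups, 1 of 50 sets of values held a mouse far from the others of its group. Chance alone gives about 1 in 20 such sets, so 1 of 50 is no excess. The sets share mice and are not independent. The receptor Nr1h4 was at 9.32 in Hlth_1798, and the nearest other healthy mouse was at 10.12. That gap was 0.78 of the range of the healthy group. Cyp7a1, Cyp8b1, Cyp27a1, Cyp7b1, Slc10a1 and Baat were also at their lowest healthy value in Hlth_1798.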

How the results depend on the processing

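Among the recomputed counts of called genes of the 10, 191 stayed at 0 and 15 did not. With array weights, 1 gene passed for vehicle against healthy (2.19% of all genes) and for vehicle with HCC against healthy (3.91%), Cyp27a1 in both, and 1 for Asp/Clo against sulindac (Cyp7b1; 2.38%). With the same weights, 2 passed for sulindac against healthy (Cyp27a1 and Cyp7a1; 9.44% of all genes) and 2 for Asp/Clo against healthy (Cyp27a1 and Cyp7b1; 7.14%). Of the 42 other bile acid genes, 1 passed higher and 2 lower for vehicle against healthy and 2 higher for sulindac against vehicle (1.2% of all genes) with these weights. For Asp/Clo, 3 passed higher and 1 lower against vehicle (3.59% of all genes), and 4 higher and 2 lower against sulindac (2.38%). Against healthy livers, 5 passed higher and 3 lower for Asp/Clo (7.14%) and 4 higher and 4 lower for sulindac (9.44%). For vehicle with HCC against healthy, 1 passed higher and 3 lower (3.91%). With the healthy mice Hlth_1798 and Hlth_1807 and the vehicle mice Veh_low_794 and Veh_low_1819 left out, all picked by their measured values, 2 passed for vehicle against healthy (5.61% of all genes) and 1 for vehicle without HCC against healthy (2.95%). In that setting 3 passed for vehicle with HCC (5.01%), 3 for sulindac (7.76%) and 3 for Asp/Clo (5.43%) against healthy. Leaving out 1 mouse at a time gave 0 to 2 for sulindac against healthy, 0 to 2 for Asp/Clo against healthy and 0 to 1 for Asp/Clo against sulindac, and 0 in the other 6 comparisons. In the repeats that gave 1 or 2, 4.28% of all genes passed for sulindac against healthy, 3.4% to 4.26% for Asp/Clo against healthy and 1.06% for Asp/Clo against sulindac. The cause of these shifts was not tested.

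Of the 90 differences of the 10 genes over the 9 comparisons, of which 0 were called by limma, 52 turned sign in at least 1 alternative. By number of alternatives, which differs between comparisons, those that did so most were Cyp8b1 in sulindac against healthy livers (10 of 24) and Nr1h4 in sulindac against vehicle livers (10 of 29). Nr0b2 turned in 9 of 25 for Asp/Clo against sulindac and Cyp7a1 in 8 of 21 for Asp/Clo against healthy. The following values are for differences with an unadjusted p under 0.1 or called in some alternative. Read from the dimmest probe set, which lay near background for Cyp7b1, Asp/Clo minus vehicle was 0.0083 for Cyp7b1, Asp/Clo minus sulindac was 0.040 for Cyp7b1, and Asp/Clo minus healthy was 0.010 for Cyp7b1 and 0.036 for Baat. Without the 4 Asp/Clo mice with Xist signal, the Cyp7b1 differences were 0.41, 0.28 and 0.066 in the same order, and Baat against healthy was 0.041. Slc10a1 in vehicle against healthy livers was 0.023 without Veh_high_1831 and Veh_high_2088 and ranged from -0.10 to 0.070 when 1 mouse was left out. Cyp27a1 in vehicle without HCC against healthy livers ranged from -0.21 to 0.016 in that way. With only the compared groups in the fit, which leaves fewer mice to estimate the spread, the 4 calls of other bile acid genes for Asp/Clo against healthy had adjusted p-values between 0.0533 and 0.241 by limma. Nr1i2 was gained there, lower. That setting also lost Hsd17b4 for Asp/Clo against vehicle and Slco1a4 and Cyp3a11 for sulindac against healthy, and gained Nr5a2, higher, for Asp/Clo against sulindac. Without Veh_high_1831 and Veh_high_2088, Nr5a2 lost its call for Asp/Clo against vehicle and Abcg5 was gained, higher. Abcg5 and Abcg8 were gained, higher, for sulindac against vehicle.

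No paired analysis was possible because the replicate numbers are animal numbers that no 2 groups share. With 4 to 10 mice a group and 1 array per mouse, the number of arrays limits the precision of every difference. Cyclic loess moved the median of all genes on an array by at most 0.05 log2 units.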

Other observations

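The genes whose levels ran closest to the other members over the 30 mice, among genes at or above the median level, are given as a description. For Slc27a5 they were Gchfr (Pearson r 0.94), Pipox (0.897) and Slc38a4 (0.893). Pipox, a peroxisomal oxidase, was also among the closest 3 to Slc10a1 (0.876), with Cyp2c29 (0.893) and the peroxisomal reductase Pecr (0.87). The carboxylesterases Ces1e (0.833) and Ces1f (0.824) were nearest to Baat. Cyp27a1 ran opposite to the metallothionein gene Mt1 (-0.849). Nr1h4 ran with Smarca2 (0.857) and the mitochondrial deacetylase Sirt3 (0.836). For Nr0b2 the closest gene, Rpl26, reached 0.624, the lowest such value of the 10 genes. These values share arrays and one normalization.

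Among the other genes of bile acid handling, Cyp2c70, which makes muricholic acids in mice, was between 12.16 and 12.35 in the 4 Asp/Clo mice with Xist signal, at 11.80 and 11.25 in AspClo_60 and AspClo_62, and between 11.17 and 12.11 in the 24 mice of the other groups. The 4 mice thus lay above all others, as they did for 0.521% of all genes. Cyp2c70 was the 1 gene of the 42 that did so, while Slco1a1 and Scp2 lay below all others in the 4 mice, as 0.415% of all genes did. For these 2 genes the gap was narrow. Slco1a1 was at 4.970 in AspClo_63 and 4.982 in Veh_high_1770, and Scp2 was at 12.886 in AspClo_64 and 12.896 in Sulin_17. Klb did not divide the Asp/Clo group in this way, at 8.76 to 9.38 with Xist signal and 8.79 to 9.28 without it. Abcc3, a basolateral exporter, differed by -0.47 (adjusted p = 0.0627 by limma) between Asp/Clo and healthy livers and was not called.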
